A study of Mus musculus with 2 samples.

Results

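The genes described here are 10 genes of the neuronal cytoskeleton that are often read as signs of a young neuron, measured in Cajal-Retzius (CR) cells of the mouse hippocampus: the stathmins Stmn1, Stmn2, Stmn3 and Stmn4, the thymosins Tmsb4x and Tmsb10, the tubulins Tuba1a, Tubb3 and Tubb2b, and doublecortin (Dcx). They were chosen by symbol, and all 10 were found once among the 32285 genes of the count matrices. Hippocampi were taken at P14, while CR cells are being lost, from 4 control mice (ΔNp73-Cre; Cic flox/+; tdT; 3 males and 1 female) and 4 knockout mice (ΔNp73-Cre; Cic flox/flox; tdT; 2 males and 2 females), and the mice of each genotype were pooled into 1 library. Live, tdT-positive cells were sorted and sequenced from the 3′ ends of their transcripts. The controls also carry the Cre, the reporter and a floxed Cic allele, so they are conditional heterozygotes, and the driver deletes Cic, which encodes the transcriptional repressor capicua, in cells of the ΔNp73 lineage and not in every one of them.

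Microtubules are built from pairs of alpha- and beta-tubulin, and stathmins bind free tubulin pairs and promote microtubule disassembly. Beta-thymosins do the corresponding work for actin by holding actin monomers in reserve, and doublecortin binds and stabilises microtubules in migrating and newly formed neurons. CR cells are early-born neurons of the marginal zone that secrete reelin, stop dividing soon after they leave the ventricular zone and are mostly eliminated after birth.

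A barcode was counted as a CR barcode when it held at least 2000 UMIs (unique molecular identifiers, 1 per captured transcript) and at least 5 Reln UMIs. These limits left 1003 of 1011 control and 390 of 406 knockout barcodes of at least 2000 UMIs, and no CR barcode sequence was found in both libraries. CR barcodes were split by the share of their UMIs that came from 98 nuclear genes of the respiratory chain and ATP synthase (oxidative phosphorylation, OXPHOS). At 1.8% or more a barcode was called OXPHOS-high (83 control and 34 knockout barcodes), and below that OXPHOS-low (920 and 356). The class is a range of a continuous score: 11 control and 9 knockout barcodes lay between 1.6% and 2.0%, and those nearest to the limit were at 1.79% and 1.82% in the control and at 1.73% and 1.82% in the knockout. Barcodes of 20 to 100 UMIs (29040 control and 75813 knockout), called droplets here, gave the free RNA of each library. Levels are counts summed over barcodes per 1000000 UMIs outside the genes starting with mt-, Rpl, Rps and Mrp (counts per 1000000, CPM), and ratios of CPM carry exact 95% intervals for Poisson counts. With 1 library per genotype no test between genotypes could be made, the interval covers counting error only, and the genotype and the library cannot be told apart.

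The classes differed in more than OXPHOS genes. The median barcode held 6064 UMIs in the control and 6420 in the knockout OXPHOS-low class, against 13502 and 14230 in the OXPHOS-high class. The 6 nuclear-retained transcripts listed, Malat1 among them, took 7.47% and 7.45% of the counted UMIs in the OXPHOS-low class, 3.40% and 3.59% in the OXPHOS-high class and 0.846% and 0.808% in droplets. All 9 CR markers were detected in each class, with a summed level between 12848 and 15517 CPM. Reln is among the 9 and was required of every CR barcode, so its detection was fixed in advance. Its level was 8699 CPM in control barcodes with an OXPHOS share under 0.6% and 5358 CPM at 2.5% or more. In the knockout it was 8450 and 5151 CPM. The 11 marker lists of other cell types summed to between 0.857 and 150 CPM in the OXPHOS-low classes and between 0 and 118 CPM in the OXPHOS-high classes. Of the 8 microglial markers, C1qa, C1qb, C1qc, Csf1r and Tmem119 were at 0 in both OXPHOS-high classes, while the whole list summed to 35.0 CPM (control) and 27.8 CPM (knockout). The list of immature granule neurons, which also use several of the 10 genes, summed to 11.8 CPM in OXPHOS-low and 38.1 in OXPHOS-high control barcodes. In knockout barcodes it summed to 17.1 and 20.8 CPM, with Neurod2 at 0 in all 4 groups. Of all UMIs, ribosomal transcripts took 1.25% (control) and 1.02% (knockout) in the OXPHOS-low class. They took 7.94% and 7.1% in the OXPHOS-high class and 11.9% and 10.6% in droplets. Mitochondrial transcripts took 3.17% and 3.88% of all UMIs in the OXPHOS-low class. They took 1.89% and 2.29% in the OXPHOS-high class and 0.501% and 0.644% in droplets. The part of nuclear, ribosomal and mitochondrial transcripts in the results was not tested. Depth and barcodes with markers of other cell types are taken up beside the results.

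The 10 genes lie on 9 chromosomes, with Tmsb4x (chrX:167207093-167209315, GRCm38) and Dcx (chrX:143855842-143933311) both on the minus strand of the X chromosome. RefSeq promoter sequence was at hand for 6 of the 10: Stmn3, Tmsb4x, Tmsb10, Tuba1a, Tubb3 and Dcx. Shown are the bases just upstream of the annotated gene for both thymosins, which differed most between the classes, for Stmn3, which did not differ in the control, and for Tubb3, which lay between. Sequences are GRCm38.p6, 5′ to 3′ on the strand of the gene, with matches to the motifs searched in capitals.
Tmsb4x, chrX:167209316-167209465 (minus strand): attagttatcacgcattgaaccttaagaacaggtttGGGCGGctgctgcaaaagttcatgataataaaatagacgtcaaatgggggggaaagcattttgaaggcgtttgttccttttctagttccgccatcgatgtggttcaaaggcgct
Tmsb10, chr6:72958749-72958898 (minus strand): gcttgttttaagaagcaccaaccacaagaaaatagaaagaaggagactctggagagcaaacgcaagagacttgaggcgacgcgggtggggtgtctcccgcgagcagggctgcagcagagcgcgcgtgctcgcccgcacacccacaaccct
Tubb3, chr8:123411303-123411423 (plus strand): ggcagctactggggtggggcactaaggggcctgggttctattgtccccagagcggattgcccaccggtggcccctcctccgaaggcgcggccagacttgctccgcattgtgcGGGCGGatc
Stmn3, chr2:181314501-181314650 (minus strand): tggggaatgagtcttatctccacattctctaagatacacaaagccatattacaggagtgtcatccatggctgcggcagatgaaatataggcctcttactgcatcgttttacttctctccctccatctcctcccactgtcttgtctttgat
GC content was 43.3% for Tmsb4x, 58.7% for Tmsb10, 67.8% for Tubb3 and 44.7% for Stmn3. The 250 bases before each of the 9 RefSeq starts of the 6 genes were searched on both strands. The GC box GGGCGG was found at Tmsb4x, at all 3 starts of Tmsb10, at Tuba1a and at Tubb3, and in 32.7% of 32851 mouse promoters of that length. CCAAT was found at Tuba1a, Tubb3 and 1 of the 2 Dcx starts (33.8% of all promoters), and TATAAA at both Dcx starts only (12.4%), whose windows overlap. None of the 9 windows held an octamer bound by capicua (TGAATGAA, TGAATGGA, TCAATGAA or TCAATGGA), which 3.19% of all promoters held.

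Together the 10 genes took 0.307% of the counted UMIs of control and 0.316% of knockout OXPHOS-low barcodes. The shares were 1.10% and 0.857% in the OXPHOS-high class and 1.43% and 1.2% in droplets. They did not move as 1 group. Stmn1 and both thymosins were many times higher in OXPHOS-high barcodes and in droplets. The tubulins had smaller ratios, all above 1 and lower in the knockout than in the control library. Stmn2, Stmn3 and Stmn4 had ratios between 0.576 and 1.82, which also differed between the libraries in size or direction. Dcx was close to undetected throughout. The plot of levels by class shows both libraries side by side.

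**Figure D1:**
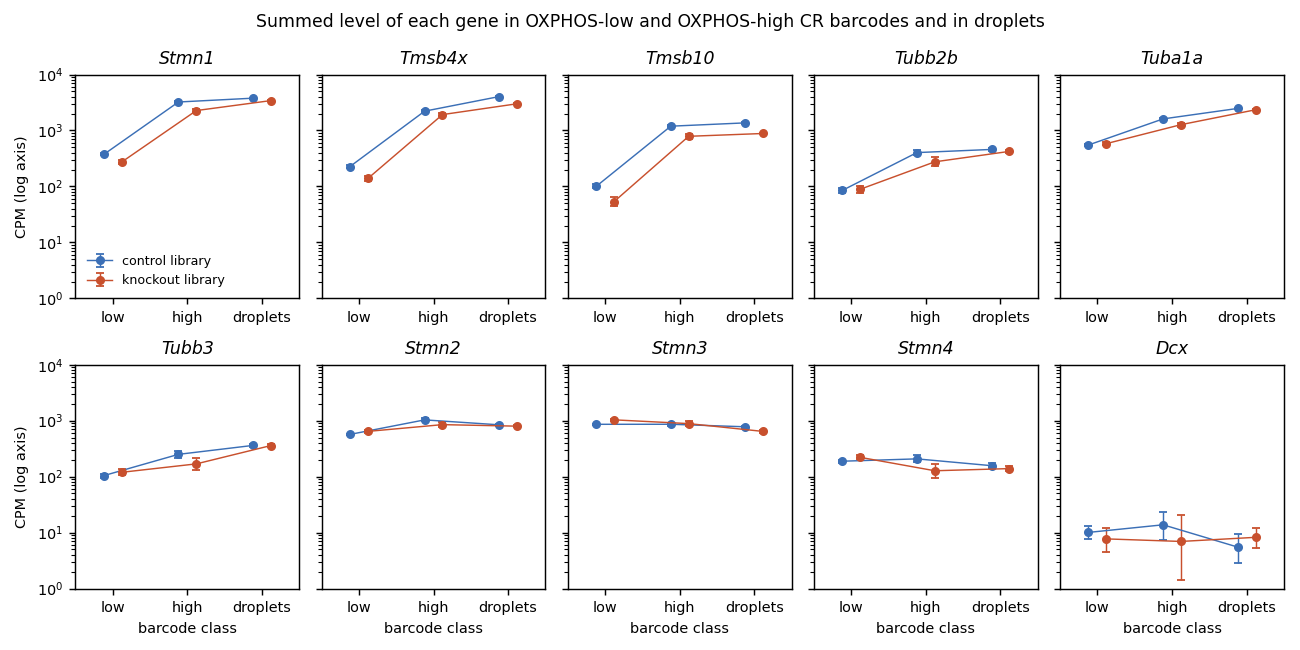
Level of each gene (CPM, log axis) in OXPHOS-low barcodes, OXPHOS-high barcodes and droplets of the control (blue) and knockout (orange-red) library; bars are exact 95% Poisson intervals. Stmn1, Tmsb4x and Tmsb10 are 8.31 to 14.7 times as high in the high as in the low class, while Stmn3 runs level in the control at 862 and 863 CPM.

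The first comparison asks how the genes differ between CR barcodes rich and poor in OXPHOS transcripts of the same library. Of the 9 genes with at least 100 UMIs in the 2 classes together, 7 were at least 1.5-fold higher in the OXPHOS-high class of the control (24.6% of all 8304 genes were) and 0 were at least 1.5-fold lower (27.7%). In the knockout 5 were higher (21.7% of 5226 genes) and 1 was lower (25.4%). The median gene stood at 0.896 and 0.885 of its OXPHOS-low level, so ratios are to be read against a value slightly below 1. Dcx held too few UMIs to be counted.

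Among the stathmins, Stmn1, the form found in most dividing and young cells, stood apart from its relatives. It was at 374 CPM in OXPHOS-low and 3229 in OXPHOS-high control barcodes, a ratio of 8.64 (8.17 to 9.13). In the knockout it was at 273 and 2271 CPM, a ratio of 8.31 (7.51 to 9.19). Stmn2, a neuronal stathmin linked to axon growth, went from 568 to 1033 CPM in the control (1.82, 1.69 to 1.95) and from 644 to 850 in the knockout (1.32, 1.17 to 1.48), which is below the 1.5-fold limit. Stmn3, another neuronal stathmin, was at 862 and 863 CPM in the control (1.00, 0.928 to 1.08) and at 1035 and 887 in the knockout (0.857, 0.767 to 0.955). Stmn4 was at 189 and 208 CPM in the control (1.10, 0.941 to 1.28), but at 221 and 127 in the knockout (0.576, 0.428 to 0.762), where its OXPHOS-high value rests on 55 UMIs.

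The thymosins had the largest ratios of the 10 genes. Tmsb4x was at 227 and 2214 CPM in the control (9.75, 9.09 to 10.5) and at 139 and 1924 in the knockout (13.9, 12.2 to 15.8). Tmsb10 was at 100 and 1193 CPM in the control (11.9, 10.8 to 13.2) and at 53.6 and 787 in the knockout (14.7, 11.9 to 18.2). In the ranking of all counted genes by this ratio, Stmn1 and both thymosins lay at or above the 99.4th percentile in each library.

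The tubulins had smaller ratios, which were lower in the knockout than in the control library, and all but Tubb3 in the knockout passed the 1.5-fold limit. Tubb2b, a beta-tubulin of developing neurons, went from 85.0 to 403 CPM in the control (4.74, 4.13 to 5.43) and from 89.1 to 275 in the knockout (3.09, 2.45 to 3.89). Tuba1a, the main alpha-tubulin of young neurons, went from 551 to 1611 CPM (2.92, 2.75 to 3.11) and from 583 to 1271 (2.18, 1.97 to 2.41). Tubb3, the beta-tubulin by which neurons are commonly stained, went from 104 to 250 CPM (2.40, 2.05 to 2.79) and from 120 to 169 (1.41, 1.08 to 1.84). Of the 90-base stretches at the 3′ end of Tuba1a, 52.1% were shared with other genes, Tuba1b and Tuba1c among them, as were 25.5% of Stmn1 and 21.3% of Tmsb10, so the split of reads between these copies is uncertain. None of the stretches of the other 7 genes were shared.

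**Figure D2:**
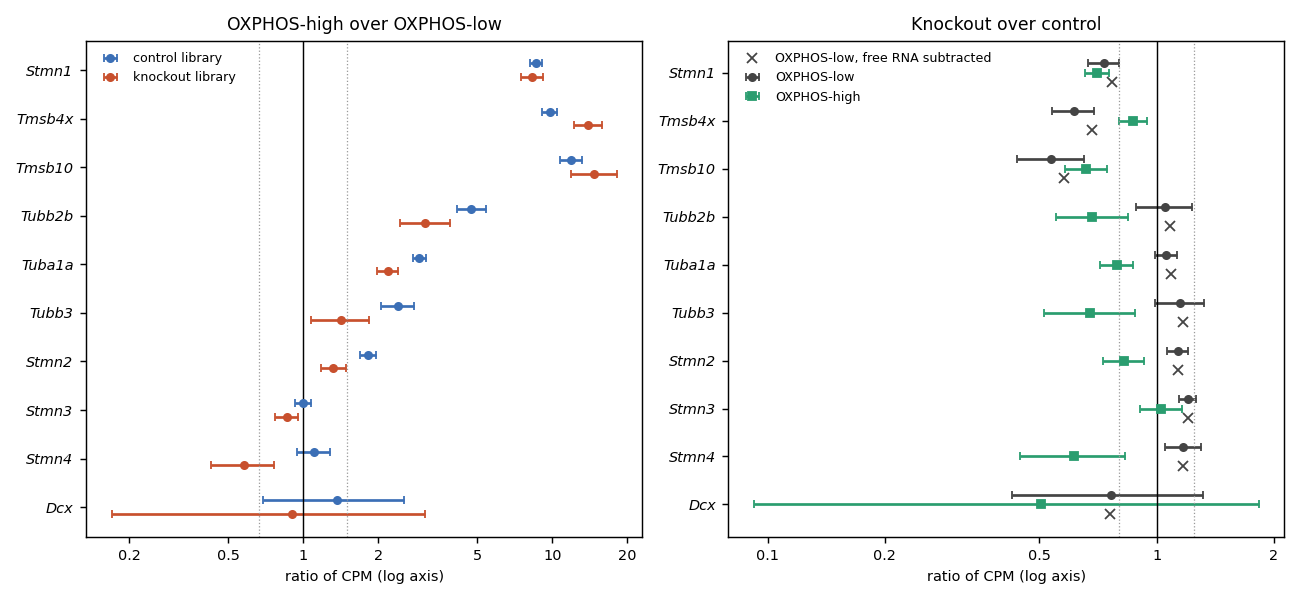
Ratio of CPM on log axes for OXPHOS-high over OXPHOS-low barcodes in each library (left) and for knockout over control in each class (right); bars are exact 95% intervals for counting error, crosses show OXPHOS-low ratios after subtraction of free RNA, and dotted lines mark the fold limits of 1.5 (left) and 1.25 (right). On the right, Stmn1, Tmsb4x and Tmsb10 lie below 1 in both classes, whereas the tubulins, Stmn2 and Stmn4 lie above 1 in the low and below 1 in the high class. The low-class bars of the tubulins cross 1.

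Because OXPHOS-high barcodes were deeper, the comparison was repeated at equal depth. With every barcode thinned to 2000 UMIs, a Stmn1 UMI was found in 46.3% (43.0 to 49.6; exact binomial interval) of OXPHOS-low and 97.6% (91.6 to 99.7) of OXPHOS-high control barcodes, and in 42.1% and 85.3% of knockout barcodes. The unthinned shares were 82.5% and 97.6% in the control. Thinned shares for Tmsb4x were 32.7% and 96.4% in the control and 22.2% and 82.4% in the knockout. Those for Tmsb10 were 15.5% and 72.3%, and 10.1% and 61.8%. In contrast, Stmn3 UMIs were found in 74.5% and 80.7% of control and 77.5% and 82.4% of knockout barcodes, and Stmn4 UMIs in 28.4% and 25.3%, and 33.1% and 8.82%. The last value (interval 1.86 to 23.7) comes from 1 random thinning of 34 barcodes, and the unthinned Stmn4 shares of the knockout were 58.1% and 70.6%. Within barcodes of 8000 to 16000 UMIs alone, a limit chosen after the data were seen that kept 45 OXPHOS-high control and 12 knockout barcodes, the OXPHOS-high over OXPHOS-low ratio was 8.83 and 9.98 for Stmn1, 11.1 and 16.1 for Tmsb4x and 12.4 and 21.4 for Tmsb10 in the control and knockout, and that of Stmn4 was 1.71 and 0.803.

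Spread over barcodes was measured by the Fano factor (variance over mean of the thinned counts, 1 for pure counting error). For the same relative variation its excess over 1 grows with the mean count, so it cannot rank genes of unlike level. In OXPHOS-low control barcodes it was 1.59 for Stmn3, 1.35 for Tuba1a, 1.34 for Stmn4, 1.31 for Stmn1, 1.02 for Tubb3 and 1.05 for Tubb2b. The mean thinned counts of these genes were 1.68, 1.01, 0.388, 0.678, 0.189 and 0.163. In OXPHOS-high control barcodes the Fano factor was highest for Tmsb10 (2.39), Tuba1a (2.03) and Tmsb4x (2.00). The mean Tmsb10 count was 2.17 there and 0.184 in the OXPHOS-low class. In OXPHOS-high knockout barcodes the Fano factor was 4.75 for Tmsb10 and 2.66 for Tmsb4x, and 1 barcode reached 8884 CPM of Tmsb10. Within OXPHOS-low barcodes no pair of the 10 genes had a rank correlation above 0.224, and counts per barcode were low. The highest was between Tmsb4x and Tmsb10 in OXPHOS-high knockout barcodes (rho of 0.566 over 34 barcodes of 1 library, which differ in depth), and it was 0.351 over the 83 control barcodes.

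Summed per barcode, Stmn1, Tmsb4x and Tmsb10 took a median of 0.0589% of UMIs in OXPHOS-low and 0.665% in OXPHOS-high control barcodes, and 0.0403% and 0.496% in the knockout. None of the OXPHOS-low barcodes of either library lay above the OXPHOS-high median of that library. In the other direction, 5 of 83 control and 5 of 34 knockout OXPHOS-high barcodes lay below the 95th percentile of their OXPHOS-low class, with OXPHOS shares of 1.89% to 2.07% and 1.82% to 2.41%. The 3 tubulins overlapped more, with medians of 0.0629% and 0.208% in the control and 0.0683% and 0.143% in the knockout. The sum of Stmn2, Stmn3 and Stmn4 overlapped most, with medians of 0.151% and 0.209% in the control and 0.182% and 0.187% in the knockout. Above the OXPHOS-high median lay 249 of 920 control and 169 of 356 knockout OXPHOS-low barcodes, and below the OXPHOS-low median lay 13 of 83 and 15 of 34 OXPHOS-high barcodes.

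**Figure D3:**
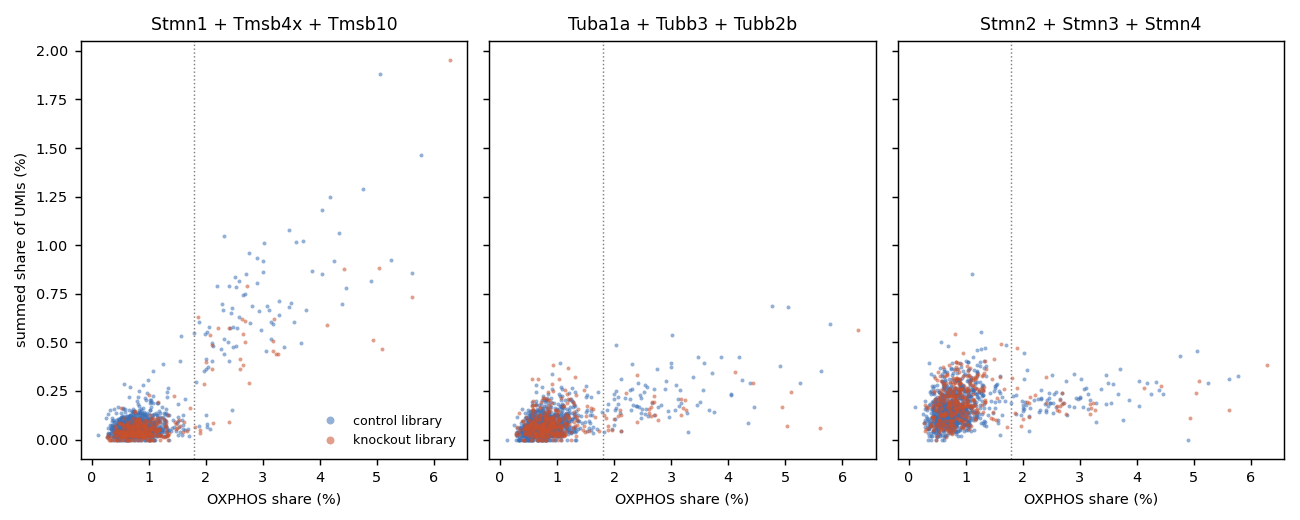
Share of counted UMIs (%) from 3 groups of genes against the OXPHOS share (%) of each CR barcode, with control barcodes in blue, knockout barcodes in orange-red and the 1.8% limit dotted. To the right of the limit the Stmn1 and thymosin sum has medians of 0.665% and 0.496%, each of which no barcode of its own library to the left exceeds, while the sum of Stmn2, Stmn3 and Stmn4 overlaps on both sides.

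A finer division by OXPHOS share showed where along the score each gene changed. Stmn1 was at 306, 344, 422 and 686 CPM in control barcodes of under 0.6%, 0.6 to 0.9%, 0.9 to 1.2% and 1.2 to 1.8%, then at 2491 at 1.8 to 2.5% and at 3760 above that. In the knockout the values were 192, 255, 333 and 408, then 1790 and 2595 CPM. Tmsb4x showed the same step, from 539 to 1873 CPM across the limit in the control and from 196 to 1801 in the knockout. The bins on either side of the limit held 66 and 33 control and 30 and 13 knockout barcodes, so the last knockout bins are thinly filled.

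Stmn3 and Stmn4 followed other courses. Stmn3 rose over the OXPHOS-low range from 595 to 835, 1086 and 1412 CPM in the control and from 656 to 1036, 1222 and 1442 in the knockout, and stood at 673 and 944 CPM just past the limit. The equal Stmn3 levels of the 2 control classes thus average over a range in which the gene varied more than 2-fold. Stmn4 fell over the same bins from 223 to 191, 165 and 106 CPM in the control and from 324 to 223, 162 and 123 in the knockout, and stood at 233 and 115 CPM past the limit, where the knockout value rests on 20 UMIs. Tuba1a rose through all 6 bins in both libraries, from 404 to 1821 CPM in the control and from 506 to 1336 in the knockout. The median depth of the OXPHOS-low bins stayed between 5277 and 6754 UMIs. Past the limit it was 13686 and then 13427 UMIs in the control, and 15944 and then 14118 in the knockout. Depth thus stepped up at the same limit as Stmn1 and the thymosins.

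**Figure D4:**
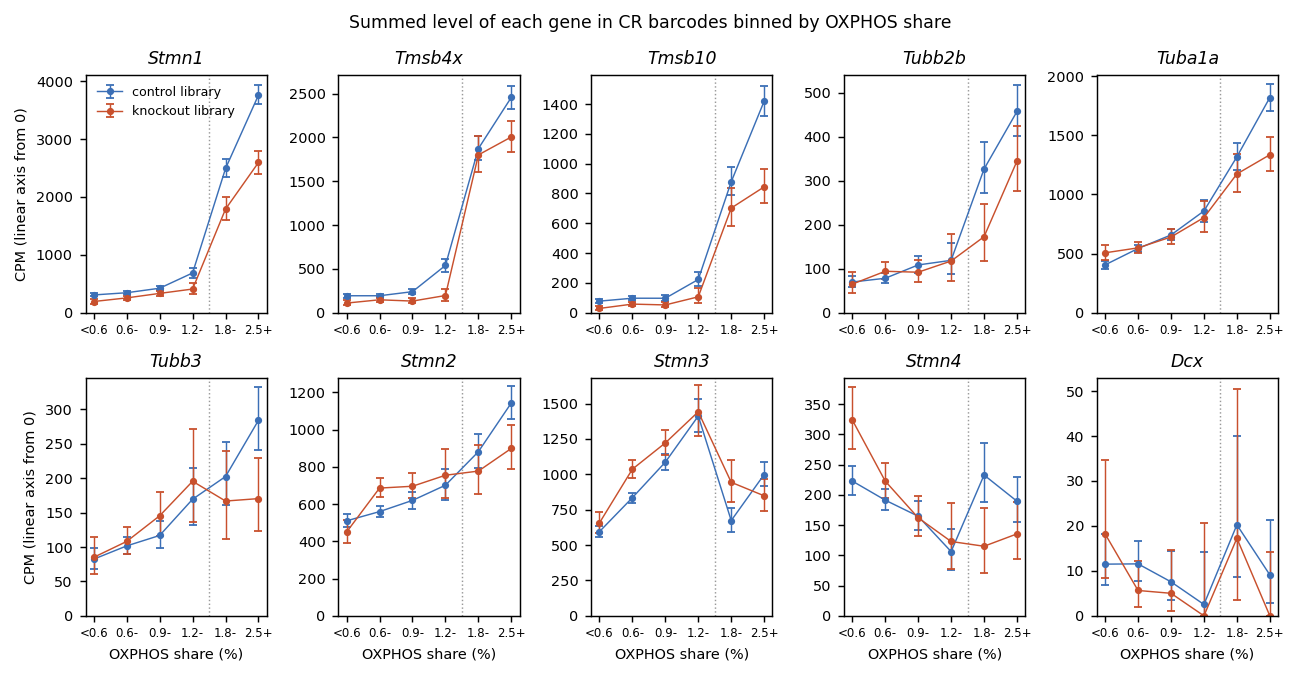
Level of each gene (CPM, linear axis from 0, a scale of its own in each panel) in CR barcodes binned by OXPHOS share, with exact 95% Poisson intervals; the dotted line is the 1.8% limit. Stmn1 and the thymosins step up at the limit, Stmn3 climbs to 1412 CPM in the control before it and is at 673 after it, and Stmn4 declines up to the limit.

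The second comparison asks how the genes differ between CR barcodes of the Cic knockout and control libraries. The targeted gene could not check the labels here: Cic was at 56.4 CPM in control and 51.4 in knockout OXPHOS-low barcodes (0.912, 0.733 to 1.13), and reads from the 3′ end need not cover the deleted exons. In the OXPHOS-low class the 10 genes together were at 3070 CPM in the control and 3164 in the knockout, a ratio of 1.03 (1.00 to 1.06). Of the 9 genes counted, 0 were at least 1.25-fold higher in the knockout (12.4% of 8848 genes were) and 3 were at least 1.25-fold lower (10.2%). In the OXPHOS-high class the 10 genes together were at 11016 CPM in the control and 8568 in the knockout, a ratio of 0.778 (0.749 to 0.808). There 0 were higher (12% of 3051 genes) and 6 were lower (15.1%).

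The 3 genes lower in OXPHOS-low knockout barcodes were those with the largest ratios of OXPHOS-high barcodes and of droplets to OXPHOS-low barcodes. The knockout over control ratio was 0.731 (0.668 to 0.799) for Stmn1, 0.612 (0.540 to 0.692) for Tmsb4x and 0.534 (0.437 to 0.650) for Tmsb10. Free RNA differed between the libraries beside them: the droplets of 20 to 100 UMIs had a median of 89 UMIs in the control and 44 in the knockout. If each CR barcode took up that much free RNA, it would hold 0.311 free Tmsb4x UMIs in the control and 0.117 in the knockout, which is 22.3% and 12.9% of the Tmsb4x UMIs of an average OXPHOS-low barcode. The corresponding shares were 12.7% and 7.45% for Stmn1 and 17.1% and 9.82% for Tmsb10, and at most 1.86% for Stmn2, Stmn3 and Stmn4. After subtraction the ratios were 0.770 for Stmn1, 0.681 for Tmsb4x and 0.577 for Tmsb10. The 20 to 100 limit stops short of the control's most frequent droplet size of 103 UMIs. With droplets of 20 to 200 UMIs, a range chosen after the data were seen, the ratios were 0.789, 0.707 and 0.595, still past the 1.25-fold limit. Over all 17 alternatives the ratio ran from 0.680 to 0.846 for Stmn1, from 0.560 to 0.752 for Tmsb4x and from 0.381 to 0.744 for Tmsb10. The Stmn1 value of 0.846, with an OXPHOS limit of 2.2%, was no longer past the 1.25-fold limit.

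The other 6 genes counted had ratios above 1 in this class. The ratios were 1.2 (1.14 to 1.26) for Stmn3, 1.17 (1.05 to 1.30) for Stmn4, 1.13 (1.06 to 1.2) for Stmn2, 1.15 (0.991 to 1.32) for Tubb3, 1.06 (0.992 to 1.13) for Tuba1a and 1.05 (0.887 to 1.24) for Tubb2b, all within the 1.25-fold limit. The difference in Stmn4 was largest in the barcodes poorest in OXPHOS transcripts: the ratio was 1.45 (1.2 to 1.76) under 0.6%. It was 1.16 (0.993 to 1.36) at 0.6 to 0.9%, 0.984 (0.763 to 1.26) at 0.9 to 1.2% and 1.16 (0.658 to 1.98) at 1.2 to 1.8%.

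In the OXPHOS-high class the free RNA share of these genes was at most 1.24%. Stmn1 was at 0.703 (0.654 to 0.756) of the control level, close to its OXPHOS-low ratio, and Tmsb10 at 0.660 (0.583 to 0.745). Tmsb4x, in contrast, was at 0.869 (0.801 to 0.942), within the limit. The tubulins, which did not pass the limit in the OXPHOS-low class, all did here: Tubb3 was at 0.676 (0.512 to 0.882), Tubb2b at 0.684 (0.552 to 0.843) and Tuba1a at 0.789 (0.714 to 0.871). Of the 9 genes counted Stmn4 had the lowest ratio, 0.613 (0.446 to 0.831), Stmn2 was at 0.822 (0.727 to 0.928), and Stmn3 at 1.03 (0.908 to 1.16). Leaving out barcodes with at least 2 UMIs of any non-neuronal marker list kept 42 of 83 control and 12 of 34 knockout OXPHOS-high barcodes. Then 3 instead of 6 genes passed the limit, and the ratio was 0.879 for Tmsb10, 0.904 for Stmn4 and 0.919 for Tubb2b. The share of all genes past the limit was not computed for these barcodes. Of these lists, Pdgfra, Olig1, Olig2, Sox10, Cldn5, Flt1 and Cdh5 were at 0 in both OXPHOS-high classes. Through other genes, the whole list of oligodendrocyte precursors summed to 47.7 CPM (control) and 97.2 CPM (knockout) there. That of endothelial and mural cells summed to 97.5 and 118 CPM. Whether the barcodes left out hold RNA of other cells was not tested, and deeper barcodes reach 2 UMIs more readily.

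The libraries also differ in sex, and 2 of the genes are X-linked. Among OXPHOS-low barcodes with a Y-linked UMI and no Xist UMI, the Tmsb4x level was 227 CPM for control and 139 CPM for knockout barcodes. Among those with Xist and no Y-linked UMI it was 216 and 142 CPM. The same split gave 373 and 254 CPM, and 381 and 302 CPM, for Stmn1. For Tmsb10 it gave 98.7 and 40.7 CPM, and 91.0 and 67.7 CPM, so its difference was smaller among barcodes with Xist. These knockout values rest on 47 and 73 Tmsb10 UMIs. In the OXPHOS-high class Tmsb4x was at 2238 and 1586 CPM in barcodes with a Y-linked UMI (54 and 22 barcodes) but at 2143 and 2373 CPM in those with Xist (15 and 9 barcodes), so its direction there was not the same in the 2 sets.

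The third comparison sets the CR barcodes beside the free RNA of their own library. Of the 9 genes counted, 6 were at least 1.5-fold higher in droplets than in OXPHOS-low barcodes of the control (33.5% of 9033 genes) and 0 were lower (41.4%). In the knockout 6 were higher (37.2% of 7913 genes) and 2 were lower (37.4%). Tmsb4x was at 4039 CPM in control and 3003 in knockout droplets, 17.8 (16.8 to 18.9) and 21.6 (19.4 to 24.2) times its OXPHOS-low level. Tmsb10 was at 1368 and 884 CPM (13.7 and 16.5 times), and Stmn1 at 3780 and 3422 CPM (10.1 and 12.5 times). The tubulins stood between 3.01 and 5.39 times their OXPHOS-low levels. Stmn3, at 777 and 642 CPM, was at 0.902 (0.853 to 0.954) and 0.620 (0.584 to 0.659), and Stmn4, at 157 and 139 CPM, at 0.832 and 0.630.

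For Stmn1, the thymosins and the tubulins, droplets lay nearer to the OXPHOS-high than to the OXPHOS-low level in both libraries. Droplets were also above both classes in OXPHOS genes, at 4.61% (control) and 4.44% (knockout) of counted UMIs. The OXPHOS-high class was at 2.85% and 2.81%, and the OXPHOS-low class at 0.775% and 0.818%. Whether these 6 genes differ in this from the whole RNA profile was not tested. OXPHOS-high over droplets was 0.854 and 0.664 for Stmn1, 0.872 and 0.891 for Tmsb10, and 0.878 and 0.651 for Tubb2b in the control and knockout. It was 0.548 and 0.641 for Tmsb4x, 0.650 and 0.542 for Tuba1a, and 0.692 and 0.470 for Tubb3. The levels of these 6 genes were thus higher in free RNA than in either class of CR barcodes in both libraries. The median of all counted genes was also below 1, at 0.946 in the control and 0.915 in the knockout. By this ratio the 6 genes ranked from the 8.76th (Tmsb4x) to the 44.5th percentile (Tubb2b) in the control. In the knockout they ranked from the 7.19th (Tubb3) to the 48.5th (Tmsb10). Between the libraries, droplets held less Tmsb4x (0.744, 0.722 to 0.766) and Tmsb10 (0.646, 0.613 to 0.681) in the knockout, while Tubb3 was level (0.995, 0.907 to 1.09).

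Dcx was hardly detected. It gave 57 UMIs in 920 OXPHOS-low and 13 in 83 OXPHOS-high control barcodes (10.1 and 13.8 CPM), and 18 and 3 in the knockout (7.71 and 6.95 CPM). After thinning, a Dcx UMI was found in 1.96% and 4.82% of control and 1.12% and 2.94% of knockout barcodes. Droplets held 12 and 25 Dcx UMIs (5.51 and 8.23 CPM). The OXPHOS-high over OXPHOS-low ratio of Dcx was 1.37 (0.687 to 2.53) for the control library and 0.901 (0.170 to 3.08) for the other. Its knockout over control ratio was 0.766 (0.424 to 1.32) and 0.504 (0.0922 to 1.83) in the 2 classes, so no difference was detectable at this depth. Dcx is the most specific of the 10 for newly formed neurons, so the name immature neuron genes stands here for the genes chosen and not for a stage of the cells.

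Other genes of the same machinery were taken as lists. The genes named as highest or lowest are so in the control library. Their knockout ratio follows and need not be an extreme there. All 7 counted tubulins outside the 10 genes were at least 1.5-fold higher in OXPHOS-high control barcodes, as were 4 of 5 in the knockout. Control ratios ran from 1.6 for Tuba4a to 3.46 for Tubb5. In the knockout Tubb5 was at 3.74, and Tuba4a, at 2.44, held too few UMIs to be counted. Actin and its binding proteins were higher for 23 of 30 genes in the control and 16 of 22 in the knockout, and lower for 0 in both. In the control their highest ratio was that of Pfn1, which encodes the actin-binding profilin (8.15), and their lowest that of Dbn1 (0.829). In the knockout Dbn1 was at 0.884, and Pfn1, at 8.17, held too few UMIs to be counted. Microtubule-associated proteins were higher for 4 and lower for 5 of 23 in the control, and higher for 3 and lower for 2 of 22 in the knockout, with Mapre1 highest (2.25 and 1.99) and Mtus2 lowest in the control (0.585, and 1.19 in the knockout). Tubulin cofactors and modifying enzymes were higher for 5 and lower for 1 of 13 in the control. In the knockout they were higher for 4 and lower for 2 of 8. Control ratios ran from 0.488 for Agbl4 to 6.11 for the cofactor Tbca. In the knockout Tbca was at 7.97, and Agbl4, at 0.681, did not pass the limit and was not the lowest. Kinesins and dynein were higher for 10 and lower for 2 of 23 in the control and higher for 7 and lower for 0 of 20 in the knockout, from Kif1a (0.639 and 0.712) to the dynein light chain Dynll1 (7.09 and 5.54). Of all genes, 24.6% were higher and 27.7% lower in the control, and 21.7% and 25.4% in the knockout. The growth cone proteins ran from Gpm6b (0.619 and 0.584) to Tagln3 (7.44 and 7.14). Of these, 8 of 15 were higher and 2 lower in the control, and 6 of 12 higher and 2 lower in the knockout. Other markers of immature neurons did not move as a list: 3 of 8 were higher and 1 was lower in the control. In the knockout 2 of 8 were higher and 0 lower, and Sox4 was at 2.32 and 3.21 and Ncam1 at 0.602 and 0.704 in the 2 libraries. Markers of mature neurons gave 4 higher and 1 lower of 10 in the control and 2 higher and 0 lower of 9 in the knockout. Thy1 was lowest in the control, at 0.662, and at 0.855 in the knockout. The activity or dissociation genes moved beside them, 6 of 9 higher and 0 lower in the control and 4 of 8 and 0 in the knockout, with Fos at 4.47 and 4.27.

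Between genotypes, in OXPHOS-low barcodes, 0 of 7 other tubulins and 3 of 31 actin genes (1 higher, 2 lower) passed the 1.25-fold limit (12.4% of all genes higher and 10.2% lower), with median ratios of 1.14 and 1.03 where the median of all genes was 1.00. In OXPHOS-high barcodes 0 of 5 other tubulins (median 0.870) and 4 of 23 actin genes (1 higher, 3 lower; median 0.941) passed it, beside 6 of the 9 genes described here (median 0.703) and 12% of all genes higher and 15.1% lower. Microtubule-associated proteins gave 1 higher and 5 lower of 23 in OXPHOS-low and 3 higher and 2 lower of 19 in OXPHOS-high barcodes, and growth cone proteins 1 higher and 3 lower of 15, and 0 higher and 4 lower of 12. The activity or dissociation genes gave 1 higher and 2 lower of 9 (median 0.890) in OXPHOS-low and 1 higher and 4 lower of 8 (median 0.794) in OXPHOS-high barcodes. Their part in the results was not tested. Tubb5 was at 0.807 (0.730 to 0.890) in OXPHOS-low and 0.870 (0.770 to 0.982) in OXPHOS-high barcodes. Over the 6 groups of barcodes, the genes whose centred log2 CPM lay nearest to the median course of the 10 genes among 10530 genes were Cenpb, Cdc34, Phax, Mak16 and Lage3, at distances of 0.199 to 0.264 log2 units. These distances leave out counting error, and Cdc34 and Mak16 were scarce, at 16.2 CPM each in OXPHOS-high knockout barcodes. Of the 10 genes themselves the tubulins lay nearest to that median (Tuba1a 0.320, Tubb3 0.502, Tubb2b 0.657). Stmn2 was next at 1.45 and Tmsb4x farthest (2.77), so the median course is that of the tubulins more than of the 10 genes.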

How the data were processed

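The authors deposited raw UMI counts per gene and barcode for all barcodes of 2 libraries (10x Chromium 3′ v3.1), totalling 16336796 control and 6777071 knockout UMIs. The study's methods name Cell Ranger and the mm10 reference, the submitters' processing notes Cell Ranger 8.0.1 and mm39, and the file headers Cell Ranger 4, so the version and build are uncertain. Whether intronic reads or strand were counted is not given in the sources used here. No cell calling, clustering or doublet removal was applied in the main values. Scrublet (scanpy 1.11.5) was used in an alternative that left out 8 control and 1 knockout barcodes, and other alternatives are in the closing section. Summing, thinning (to 2000 UMIs) and intervals used Python 3.11.15, numpy 2.4.6 and scipy 1.17.1, and were tested on simulated data. The simulated counts varied by counting error only, so spread between barcodes beyond it was not covered. Genes with at least 100 UMIs in 2 groups were counted against a fold of 1.5 (classes, droplets) or 1.25 (genotypes). Both libraries share a batch label. Gene positions are from GENCODE M21.

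All 10 genes were named in each comparison. From each list of related genes those with the highest and lowest OXPHOS-high over OXPHOS-low ratio in the control were considered, with the 5 genes nearest in pattern and Cic; 1 gene named by this rule is not reported here. The genes and lists were chosen with earlier results of these data known.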

Additional observations from a re-analysis of the deposited data

Results flagged for a closer look

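Barcodes outside the comparisons also held these transcripts. The 8 control and 16 knockout barcodes with at least 2000 UMIs but fewer than 5 Reln UMIs held the 10 genes at 5850 and 4960 CPM, above the OXPHOS-low and below the OXPHOS-high level of their library. Their summed markers of ependymal, choroid and fibroblast cells stood at 98713 and 65319 CPM and those of astrocytes at 5877 and 9476 CPM.

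For 5 genes and for the sum, the knockout over control ratio was above 1 in the OXPHOS-low and below 1 in the OXPHOS-high class. The OXPHOS-low interval held 1 for Tuba1a, Tubb3 and Tubb2b. The OXPHOS-low ratio also fell below 1 in some alternatives for all but Stmn4, whose lowest value was 1.11. The lowest values were 0.877 for Tuba1a, 0.861 for Tubb3, 0.930 for Tubb2b, 0.979 for Stmn2 and 0.981 for the sum. The OXPHOS-high ratio divided by the OXPHOS-low ratio was 0.726 (0.635 to 0.831) for Stmn2, 0.523 (0.381 to 0.718) for Stmn4, 0.746 (0.664 to 0.838) for Tuba1a, 0.590 (0.437 to 0.795) for Tubb3, 0.653 (0.502 to 0.848) for Tubb2b and 0.755 (0.720 to 0.790) for the 10 genes together. For Stmn3, with a quotient of 0.856 (0.751 to 0.976), and for Stmn4 the OXPHOS-high over OXPHOS-low ratio lay on opposite sides of 1 in the 2 libraries. The control interval held 1 for both, at 1.00 (0.928 to 1.08) for Stmn3 and 1.10 (0.941 to 1.28) for Stmn4. For Tmsb4x, with a knockout over control ratio below 1 in both classes, the quotient was 1.42 (1.23 to 1.64), and for Stmn1 0.962 (0.858 to 1.08). With 1 library per genotype these differences were not tested, and the intervals cover counting error only.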

How the results depend on the processing

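Across the alternatives, 73 of 106 summed ratios lay within the 95% counting interval of the reported value and 33 lay outside it, and none of the ratios past the fold limit changed direction. Per 1000000 of all UMIs, OXPHOS-high over OXPHOS-low was 3.37 in the control and 2.57 in the knockout (reported 3.59 and 2.71), and droplets over OXPHOS-low 4.23 and 3.53 (4.65 and 3.8). A median-ratio size factor gave 4.0, 3.06 and, for control droplets, 5.29. An OXPHOS limit of 1.5% gave 3.45 in the control classes, and one of 2.2% gave 4.43 and 3.58 for droplets. Subtraction of free RNA gave 3.76 (control classes), 4.87 (control droplets) and 1.06 (knockout over control, OXPHOS-low), or 3.78, 4.91 and 1.07 with droplets of 20 to 200 UMIs, which themselves gave 4.45. Droplets of 50 to 100 UMIs gave 3.66 in the knockout. Without barcodes carrying markers of non-neuronal cell types the values were 2.88 (knockout classes), 4.53 (control droplets), 0.996 and 0.810 (knockout over control, OXPHOS-low and OXPHOS-high). Barcodes of 8000 to 16000 UMIs gave 3.90, 3.25, 4.77, 4.10, 0.981 and 0.816 for the classes, droplets and genotypes in the order above. Barcodes with a Y-linked UMI gave 2.58 (knockout classes) and 0.723 (genotypes, OXPHOS-high), and those with Xist 3.69 (knockout droplets), 1.07 and 0.835 (genotypes). The droplets of 20 to 200 UMIs, their subtraction and the range of 8000 to 16000 UMIs were chosen after the data were seen.

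The number of genes past the limit moved by over 1.5 times in 12 of 224 cases. With folds of 2 and 1.5, 0 genes instead of 1 were lower in OXPHOS-high knockout barcodes, 0 instead of 2 in knockout droplets, and 2 instead of 6 in the knockout among OXPHOS-high barcodes. That last count was 3 without barcodes carrying non-neuronal markers. The gene lower in OXPHOS-high knockout barcodes, Stmn4, was no longer past the limit (0 genes) there, with a Y-linked UMI or at 8000 to 16000 UMIs, and 1 instead of 2 genes was lower in knockout droplets with a Y-linked UMI, at 8000 to 16000 UMIs or with droplets of 50 to 100 UMIs. In barcodes with Xist, 1 gene instead of 0 was higher in the knockout in each class. The share of all genes past the limit was not computed for these alternatives, so these counts cannot be set against it. No paired analysis was possible because each genotype has 1 library. The depth limits Dcx most, with 91 UMIs over all CR barcodes.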
